A study of Mus musculus with 2 samples.

Results

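The T-cell costimulation and checkpoint receptors described here are 10 genes, Cd28, Ctla4, Icos, Pdcd1, Lag3, Tigit, Havcr2, Tnfrsf4, Tnfrsf18 and Cd27. They were chosen by name, for what their proteins are known to do on T cells, and each was found once among the 48825 features of both matrices. The choice was made with earlier results of these data known. The authors of the data had already listed Cd28 among receptor genes differentially expressed after irradiation in acinar cells and CD4+CD8+ T cells. The data were single-cell RNA-seq (scRNA-seq) counts of parotid glands (PG) from wild-type C3H female mice, with 1 library of control glands and 1 library of irradiated (IR) glands. The IR mice had received 6 Gy per day to the head and neck on 5 days, 30 Gy in total, at 6 to 10 weeks of age, and their glands were dissociated 10 months later, at 1 year of age. The control mice had no IR, and their glands were also dissociated at 1 year of age. The glands of 2 mice were pooled before each library was made, so neither condition had a replicate, no test between them was possible, and library, mice and IR cannot be told apart.

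T cells need a signal beside that of the antigen receptor, and CD28 on their surface delivers it when it meets CD80 or CD86 on an antigen-presenting cell. ICOS, a relative of CD28, and the TNF receptor family members OX40 (Tnfrsf4), GITR (Tnfrsf18) and CD27 add further costimulation. CTLA-4 competes with CD28 for the same ligands, and PD-1 (Pdcd1), LAG-3, TIGIT and TIM-3 (Havcr2) restrain T cells that have been activated. Regulatory T cells, which carry the transcription factor FOXP3 and hold other lymphocytes in check, are known for high CTLA-4, ICOS, OX40 and GITR.

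RNA molecules were counted by their molecular barcodes (UMIs). Levels are the UMIs of a gene in all cells of a class and library, per 1e6 UMIs of that class (CPM). Every interval given in parentheses is an exact 95% interval, Poisson for a level, conditional binomial for a ratio and Clopper-Pearson for a share of cells, and covers counting error only. The control library held 22707876 UMIs over 5550 barcodes and the IR library 23890757 over 7793, of which 3378 control and 5286 IR cells passed the filters. T and natural killer (NK) cells made up 1226 of the control and 2935 of the IR cells, with medians of 3202 and 2484 UMIs per cell, and 1 barcode among them occurred in both libraries. Clustering without the 10 receptor genes split them into 8 classes. A regulatory and helper T group (188 control and 433 IR cells) carried 6 of 6 regulatory and 8 of 9 helper markers, and also 4 of 4 red blood cell and 4 of 5 type 2 innate lymphoid markers. Effector or memory CD8 T-like cells carried 7 of 8, naive-like CD8 T cells 3 of 6 and NK-like cells 7 of 8 of their markers. Gamma-delta T-like cells (46 and 43) carried 10 of 10 gamma-delta or Cxcr6-type markers, and also 4 of 4 intercalated duct markers. The other 3 classes, here T-cell groups A, B and C, carried 7 of 7 general, 6 of 6 naive-like CD4 and 6 of 6 naive-like CD8 T-cell markers against cells outside the T and NK clusters, but fewer than 3 of any T-cell list against other T and NK cells, and mixed Cd4+ and Cd8+ cells. Group B was 89.5% IR cells and was led by G430095P16Rik, Plk2 and Pdlim4, with Jun and Hspa1a also among its 10 leading genes. In it 10 genes that respond to handling and stress summed to 7277 and 8023 CPM, the highest of the T and NK classes in each library. Group C was led by secretory genes such as Lcn11 and carried 4 of 6 acinar and 3 of 7 macrophage markers. The 6 acinar markers summed to 47618 and 44366 CPM in control and IR T and NK cells, with none at 0, and their part in the results was not tested. B-cell-like cells (838 and 835) were the ninth lymphoid class. An unnamed cycling and plasma cluster (130 and 341 cells) was not counted among the T and NK cells. It carried 6 of 6 cycling, 5 of 6 plasma cell and 4 of 6 regulatory markers, and its general T-cell markers summed to 1866 and 2559 CPM. The cluster held 9.60% and 12.2% of the Tnfrsf4 and 6.53% and 9.45% of the Ctla4 UMIs of all cells.

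Several of the genes are neighbours on the mouse genome (GRCm38, GENCODE M21). Cd28 (chr1:60716800-60773359), Ctla4 (chr1:60887000-60915832) and Icos (chr1:60977927-61000320) follow each other on the plus strand, 114 and 62.1 kb apart with no other coding gene between them. Pdcd1 lies on the minus strand of the same chromosome at chr1:94038305-94052553. Tnfrsf4 (chr4:156013843-156016612) and Tnfrsf18 (chr4:156026164-156028895) are 9.55 kb apart on the plus strand. Lag3 (chr6:124904361-124911705) is 16.1 kb from Cd4 and shares its chromosome with Cd27 (chr6:125232622-125237010), both on the minus strand. Tigit (chr16:43648867-43664146, minus strand) and Havcr2 (chr11:46454935-46481255, plus strand) are on chromosomes of their own. Ctla4 overlaps Rpl18-ps1, Icos overlaps Gm37039 and Cd27 overlaps Mir8113 on the same strand. Cd27 overlaps Vamp1 and Tnfrsf18 overlaps Gm16008 on the other strand. Counts of these genes may be less certain for it, which was not tested.

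The promoters of Ctla4 (chr1:60908775-60909074), Tnfrsf4 (chr4:156013445-156013744) and Tnfrsf18 (chr4:156026072-156026371), all on the plus strand, are printed as examples of members that were several times higher in cells with Foxp3 RNA than in cells without it. Icos and Pdcd1 were so too and are not printed. The sequence table held no Icos entry. The Pdcd1 window held none of the motifs named here, and neither did the printed Tnfrsf18 window. They are RefSeq sequences (GRCm38.p6), 5′ to 3′, from 250 bases before to 50 bases after the RefSeq start, which for none of the 3 is the first base of the GENCODE span given above. Capitals mark matches to any of 4 motifs on either strand.
Ctla4: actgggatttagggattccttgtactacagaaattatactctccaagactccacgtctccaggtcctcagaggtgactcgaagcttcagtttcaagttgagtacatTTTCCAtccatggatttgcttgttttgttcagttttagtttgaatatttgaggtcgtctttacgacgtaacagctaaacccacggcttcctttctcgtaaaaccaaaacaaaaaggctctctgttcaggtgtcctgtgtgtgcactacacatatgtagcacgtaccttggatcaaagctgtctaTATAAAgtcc
Tnfrsf4: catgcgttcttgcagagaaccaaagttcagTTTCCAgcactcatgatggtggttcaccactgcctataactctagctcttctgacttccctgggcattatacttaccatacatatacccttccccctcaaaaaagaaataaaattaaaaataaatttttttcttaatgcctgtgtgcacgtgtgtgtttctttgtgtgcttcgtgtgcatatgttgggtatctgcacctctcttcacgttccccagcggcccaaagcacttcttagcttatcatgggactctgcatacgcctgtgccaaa
Tnfrsf18: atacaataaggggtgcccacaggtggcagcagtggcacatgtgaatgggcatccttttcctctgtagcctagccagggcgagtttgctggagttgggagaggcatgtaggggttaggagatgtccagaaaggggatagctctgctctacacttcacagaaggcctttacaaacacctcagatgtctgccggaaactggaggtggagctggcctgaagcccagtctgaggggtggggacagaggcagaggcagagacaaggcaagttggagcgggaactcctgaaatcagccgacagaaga
The forkhead motif TGTTTNC, the letters read by FOXP3 and its relatives, was in none of the printed windows, and 20.5% of all 32851 promoters of this length held it. The NFAT motif TGGAAA was in the Ctla4 window at positions 107 to 112 and in the Tnfrsf4 window at 31 to 36, both on the minus strand and counted from the first base printed, and in 21.4% of all promoters. The TATA motif TATAAA was in the Ctla4 window at 291 to 296, and in 13.6% of all promoters. The AP-1 motif TGANTCA was in none of the printed windows and in 7.81% of all promoters. No motif overlapped another. The table held 7 of the 10 members, and of the others in it, Tigit had a pair of forkhead matches, Havcr2 an AP-1 match, and Cd27 none.

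Receptor levels were higher in the regulatory and helper T group than in the other T and NK cells in both libraries. Of the members with at least 20 UMIs, 8 of 8 (control T and NK cells) and 9 of 9 (IR) had a ratio interval above 1 there against the other T and NK cells, where 16.9% and 21.2% of all genes did. Lag3 in control and Tigit in IR glands had under 20 UMIs outside the group, so they add no support to these counts. No member had an interval below 1, and 4.89% and 6.65% of all genes did. In control glands this group held 70.9% of the Tnfrsf4, 55.1% of the Ctla4, 49.1% of the Pdcd1 and 43.6% of the Icos UMIs of all cells. In IR glands the shares were 61.9%, 53.8%, 54.3% and 48.9%. Other members were spread more widely. The group held 32.1% and 27.4% of the Tnfrsf18 UMIs in control and IR glands, and 22.8% of the Cd28 and 14.9% of the Cd27 UMIs in control. In IR glands it held 20.1% of the Cd28 UMIs and group B 26.8%. Lag3 had 27.1% and 27.8% of its UMIs in the group and 28.2% and 32.7% in dendritic-like cells. Cd27 was only 1.18-fold (1.05 to 1.32) and 1.15-fold (1.05 to 1.25) higher in the regulatory and helper group than in the other T and NK cells. It was at 1.21 and 1.37 in group A and at 1.19 and 1.33 in group C by the same measure. Tigit in IR glands was at 3.41 (1.35 to 8.25) in the effector or memory CD8 T-like cells, from 10 UMIs there and 14 in the other cells. With under 20 UMIs outside the class, this value adds no support either. In control glands Tigit was at 1.02 (0.244 to 3.25) in that class. The gamma-delta T-like cells were high in Icos and Pdcd1 and low in Cd28, Ctla4, Tnfrsf4, Tnfrsf18 and Cd27. In each library those 2 members lay above and those 5 below the other T and NK cells, beside 11.4% of genes above and 6.02% below in control and 9.55% and 3.71% in IR glands.

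**Figure D1:**
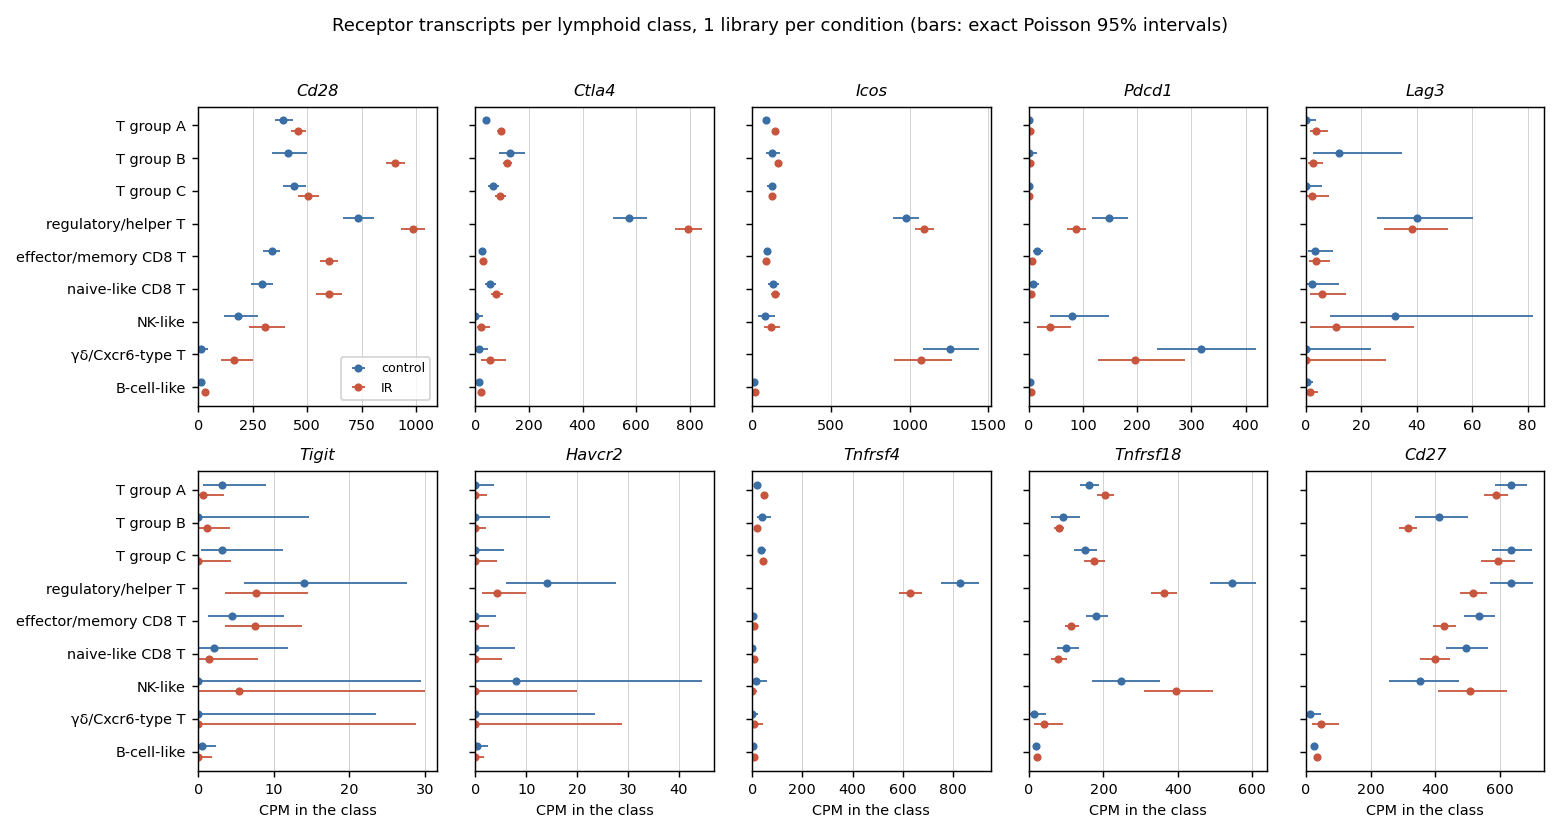
Level of each of the 10 receptor genes (x axis, CPM, own scale per panel) in 9 lymphoid classes (y axis, gamma-delta T-like shown as γδ/Cxcr6-type T) in the control and the IR library, 1 library each, with exact Poisson 95% intervals. Ctla4 and Tnfrsf4 stood out in the regulatory and helper T group and Icos and Pdcd1 in that group and in the gamma-delta T-like cells, where Icos reached 1254 and 1072 CPM.

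Over all T and NK cells, 2 members were higher in IR by at least 1.5-fold, Cd28 and Ctla4, and 1 was lower, Pdcd1. These are 2 and 1 of 9 members with at least 20 UMIs over both libraries, where 17.7% of all 10934 genes were higher and 4.45% lower by the same rule. The share of members that were higher was near that of all genes, and the share that were lower is 1 gene. The median gene was itself 1.15-fold higher in IR on this scale, and the median member stood at 0.899. TMM factors, which scale for such a shift, brought the median gene to 1.02 and the calls to 10.5% higher and 7.24% lower, so that 59.1% of the called genes were higher in place of 79.9%. With them Cd28 was at 1.47 (1.39 to 1.56) and Ctla4 at 1.40 (1.26 to 1.55), both under the fold. Relative to the median gene on the CPM scale, Cd28 was at 1.44, Ctla4 at 1.38 and Pdcd1 at 0.433. Ratio intervals lay above 1 for Cd28, Ctla4 and Icos and below 1 for Pdcd1, Tnfrsf18 and Cd27, which is 3 and 3 of 9 members, beside 25.9% and 6.60% of all genes. In Cd8+ cells, taken by their Cd8a or Cd8b1 UMIs rather than by cluster, the same 3 lay above and the same 3 below, of 8 members and beside 18.0% and 5.90% of all genes. By the share of T and NK cells with a UMI, Cd28 and Ctla4 were higher in IR with intervals apart, beside 1.66% of all genes, and Pdcd1, Tnfrsf18 and Cd27 lower, beside 12.6%, in IR cells that were less deeply read. With every cell thinned to 1000 UMIs, Cd28 and Ctla4 were still higher, beside 5.68% of all genes, and 1 member, Tnfrsf18, was lower, beside 2.54%. In barcodes left out for over 5% mitochondrial UMIs, of all cell types, 4 of 8 members lay above 1 (Cd28, Ctla4, Icos and Tnfrsf4). Another 2, Pdcd1 and Cd27, lay below 1, beside 23.4% of all genes above and 4.46% below. The share of T cells among these barcodes was not measured. Among the cells kept, T and NK cells made up 36.3% in control and 55.5% in IR glands.

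**Figure D2:**
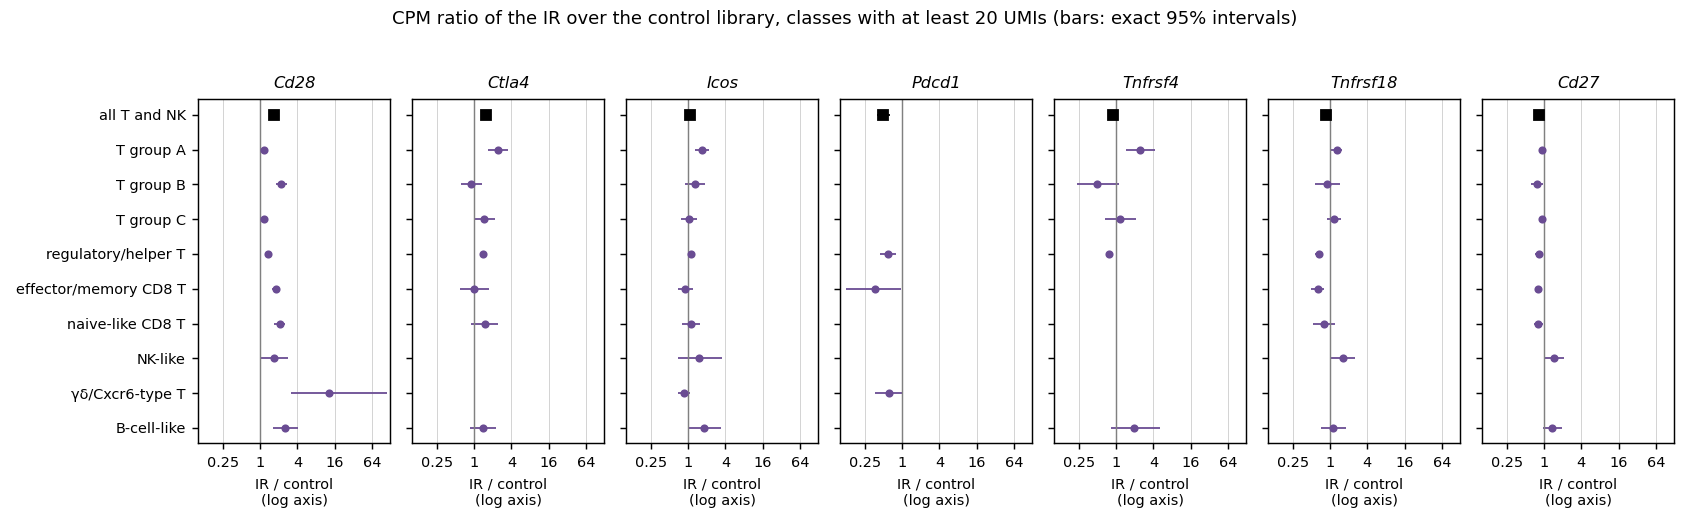
Ratio of the IR over the control library in CPM (x axis, log scale, 1 marked by a line) for 7 members, in all T and NK cells and in each lymphoid class with at least 20 UMIs (y axis), with exact 95% intervals. Cd28 lay above 1 in all 9 classes, among them the B-cell-like cells that should lack it. The median gene lay above 1 in these classes too. Pdcd1 lay below 1 in all 3 classes shown, and Tnfrsf4 and Tnfrsf18 on both sides.

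Cd28, the receptor for the classical second signal, was above its control level in all 9 lymphoid classes of the IR library. These include the B-cell-like cells, which should lack the gene and are taken up below as background. It stood at 404 CPM (384 to 424) in the control and 671 CPM (653 to 689.6) in the IR T and NK cells, from 1652 and 5169 UMIs, a ratio of 1.66 (1.57 to 1.76). The class ratios ran from 1.14 (0.984 to 1.33) in group C to 12.9 (3.16 to 114) in the gamma-delta T-like cells, where it rested on 2 control and 21 IR UMIs, and 8 of 9 intervals lay above 1. The median gene was itself above 1 in every lymphoid class, from 1.08 in the NK-like cells to 1.17 in group C. It was at 1.16 in group A, where Cd28 was at 1.17, so Cd28 was close to the median gene in groups A and C. The share of all genes with as many intervals above 1 was not measured. The naive and effector CD8 classes were among the higher ratios. Naive-like CD8 T cells went from 290.3 to 598 CPM (2.06, 1.69 to 2.52) and effector or memory CD8 T-like cells from 336 to 600.0 CPM (1.79, 1.56 to 2.05). In the regulatory and helper group, which had the highest control level, Cd28 went from 732 to 985 CPM (1.34, 1.2 to 1.51). Group B, the class of mostly IR cells, went from 413 to 904 CPM (2.19, 1.79 to 2.70). Leaving group B out gave 1.5 (1.41 to 1.59) over all T and NK cells, and weighting the IR classes by their control shares gave 1.48. Cd8+ cells went from 311 to 598 CPM (1.93, 1.73 to 2.14), and Cd4+ cells outside the regulatory and helper group from 441 to 715 CPM (1.62, 1.36 to 1.94).

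Cd28 UMIs were also more frequent in IR cells that should lack the gene. Acinar-like cells went from 5.40 to 18.3 CPM (3.39, 1.90 to 6.38) and B-cell-like cells from 12.5 to 31.9 CPM (2.56, 1.63 to 4.10). The summed level of the 7 general T-cell markers moved alongside, from 3646 to 4746 CPM (1.30, 1.28 to 1.33) in T and NK cells and from 56.4 to 109 CPM (1.94, 1.60 to 2.35) in acinar-like cells. By class, their ratio was as high as that of Cd28 in the regulatory and helper group (1.35) and group C (1.14) and close to it in group A (1.13). It was below that of Cd28 in group B (1.52), the naive-like (1.48) and effector or memory (1.21) CD8 classes, the NK-like cells (1.04) and the gamma-delta T-like cells (0.979). Their part in the Cd28 values was not tested. Cd28 UMIs were found in 64.1% (61.4 to 66.8) of control and 72.0% (70.4 to 73.6) of IR T and NK cells, against 2.36% and 7.59% of acinar-like cells, whose median depth was 5256.5 and 5469.5 UMIs. With every cell thinned to 1000 UMIs, which left out 15 and 62 T and NK cells, the shares were 32.7% (30.1 to 35.4) and 45.3% (43.5 to 47.1), against 0.822% and 2.51% of acinar-like cells. The share of T and NK cells with the gene was thus higher in IR at equal depth.

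Ctla4, which restrains T cells by taking the ligands of CD28, was high in the regulatory and helper group and low elsewhere. The group held 575 CPM (515 to 641) in control and 795 CPM (744 to 847) in IR glands, against 46.6 and 82.1 CPM in the other T and NK cells. It was thus 12.3-fold (10.2 to 15.0) and 9.68-fold (8.69 to 10.8) above them. Over all T and NK cells Ctla4 went from 120.5 to 191 CPM (1.58, 1.43 to 1.76). The ratio of IR over control was 1.38 (1.22 to 1.57) in the regulatory and helper group and 2.42 (1.69 to 3.56) in group A, from 38 control and 152 IR UMIs. In the other 5 classes with at least 20 UMIs the intervals held 1, with effector or memory CD8 T-like cells at 1.01 (0.584 to 1.76) and group B at 0.903 (0.623 to 1.35). Thinned cells gave 1.36 (1.15 to 1.61) over all T and NK cells. The share of cells with a Ctla4 UMI was 59.0% (51.7 to 66.1) and 70.2% (65.7 to 74.5) in the regulatory and helper group, and 0.524% and 2.36% in acinar-like cells.

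Icos, a costimulator of helper and regulatory T cells, was high in 2 classes, the gamma-delta T-like cells and the regulatory and helper group. The gamma-delta cells held 1254 CPM (1085 to 1442) in control and 1072 CPM (900.3 to 1268) in IR glands, and the regulatory and helper group 975 CPM (896 to 1059.8) and 1091 CPM (1032 to 1152). The gamma-delta interval lay above that of the regulatory and helper group in control, and the intervals overlapped in IR glands. Every other T and NK class lay between 80.0 and 161 CPM in both libraries. The ratio of IR over control was 1.09 (1.01 to 1.17) over all T and NK cells, 1.12 (1.01 to 1.24) in the regulatory and helper group, 0.855 (0.683 to 1.07) in the gamma-delta cells and 1.65 (1.28 to 2.14) in group A. TMM factors placed Icos at 0.965 (0.897 to 1.04) and thinned cells at 1.0 (0.880 to 1.14), so its direction over all T and NK cells depended on the scale.

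Pdcd1, the gene of PD-1, was the member that was lower in IR past the fold. It stood at 39.1 CPM (33.3 to 45.6) in control and 19.5 CPM (16.5 to 22.9) in IR T and NK cells, from 160 and 150 UMIs, a ratio of 0.498 (0.396 to 0.626). The highest level was in the gamma-delta T-like cells, with 318 CPM (236 to 419.6) in control and 196 CPM (127 to 289) in IR glands. The regulatory and helper group came next with 147 CPM (117 to 182) and 86.9 CPM (70.8 to 105). All 3 classes with at least 20 UMIs were lower in IR, at 0.592 (0.439 to 0.799) in the regulatory and helper group, 0.615 (0.365 to 1.01) in the gamma-delta cells, whose interval held 1, and 0.361 (0.122 to 0.974) in the effector or memory CD8 T-like cells, from 13 control and 7 IR UMIs. Groups A, B and C had no Pdcd1 UMI in control, and 3, 4 and 0 in IR glands. The mix of classes differed between libraries, with group B at 86 control and 735 IR cells and gamma-delta T-like cells at 46 and 43. The ratio over all T and NK cells was 0.441 to 0.615 over 11 alternatives. These included leaving out group B and using control class shares. In Cd8+ cells Pdcd1 went from 11.4 to 3.63 CPM (0.319, 0.125 to 0.756). The unnamed cycling and plasma cluster, left out of the T and NK cells although it carried T-cell markers, went the other way. It had 1 control and 21 IR UMIs (8.14, 1.31 to 337), which were 0.585% and 11.2% of the Pdcd1 UMIs of all cells.

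Lag3, Tigit and Havcr2, which are known for restraining T cells after long stimulation, gave few UMIs, and no difference between the libraries was detectable at this depth over all T and NK cells for Lag3 or Tigit. Lag3 had 34 control and 68 IR UMIs in T and NK cells, at 8.31 and 8.83 CPM (1.06, 0.694 to 1.65). Most of them, 23 and 45, lay in the regulatory and helper group. Lag3 was also found in dendritic-like cells, at 87.7 and 102 CPM (1.16, 0.703 to 1.96). Its interval lay below 1 in the regulatory T-like cells of a finer clustering, at 0.467 (0.225 to 0.980) from 16 control and 18 IR UMIs. The helper T group of that clustering went the other way, at 2.12 (0.903 to 5.78) from 7 and 27 UMIs. The undivided regulatory and helper group was at 0.953 (0.565 to 1.65). In endothelial and stromal cells the Lag3 interval lay above 1, at 3.98 (1.27 to 14.6) from 5 control and 11 IR UMIs. Tigit had 18 control and 24 IR UMIs in T and NK cells, at 4.40 and 3.12 CPM (0.709, 0.369 to 1.39), in 1.39% and 0.784% of the cells. Its UMIs came mainly from the regulatory and helper group (8 and 9) and the effector or memory CD8 T-like cells (4 and 10). Havcr2 had 9 control and 5 IR UMIs in T and NK cells, too few for a comparison. The class with most of its UMIs was an unnamed myeloid cluster that carried 7 of 7 macrophage markers but was led by Ngp, Camp and Retnlg, which held 49.1% of the control and 68.2% of the IR Havcr2 UMIs, at 93.5 and 114 CPM (1.22, 0.699 to 2.13). No UMI of Lag3, Tigit or Havcr2 was seen in 46 control and 43 IR gamma-delta T-like cells, and a count of 0 allows up to 6.52% and 6.98% of the cells to hold a UMI of a given gene. This limits cells with a UMI, not cells that express the gene.

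Tnfrsf4, the gene of OX40, had the largest share of its UMIs in the regulatory and helper group among the 10 members in both libraries. It stood at 827 CPM (754 to 905) there in control and 629 CPM (584 to 676) in IR glands, against 16.5 and 24.5 CPM in the other T and NK cells. The group was 50.2-fold (38.2 to 67.1) and 25.6-fold (21.6 to 30.6) above them. Within the group IR was lower than control, at a ratio of 0.760 (0.676 to 0.855). In group A it was higher, from 19.4 to 46.4 CPM (2.39, 1.43 to 4.19), on 19 control and 75 IR UMIs. Over all T and NK cells the ratio was 0.899 (0.806 to 1.0), and it was 0.692 (0.575 to 0.834) in thinned cells, 0.727 (0.648 to 0.815) without integration and 1.06 (0.952 to 1.19) without group B. The gamma-delta T-like cells held 0 control and 1 IR UMIs.

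Tnfrsf18, the gene of GITR, was highest in the regulatory and helper group in control and close to the level of the NK-like cells in IR glands. The regulatory and helper group stood at 547 CPM (488 to 611) in control and 363 CPM (329 to 399) in IR glands, a ratio of 0.663 (0.572 to 0.770). The NK-like cells stood at 248 CPM (169 to 352) and 394 CPM (309 to 495), a ratio of 1.59 (1.03 to 2.50) from 31 control and 73 IR UMIs. The intervals of these classes were apart in control and overlapped in IR glands. Effector or memory CD8 T-like cells went from 181 to 113 CPM (0.625, 0.498 to 0.786) and group A from 160.4 to 204 CPM (1.27, 1.05 to 1.55). The median gene was itself at 1.16 in group A and 1.08 in the NK-like cells, within the Tnfrsf18 intervals. Over all T and NK cells the ratio was 0.848 (0.777 to 0.925).

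Cd27, which sustains naive and memory T cells, was lower in IR in most T-cell classes by a small amount. It stood at 551 CPM (528 to 574) in control and 461 CPM (446 to 477) in IR T and NK cells, a ratio of 0.837 (0.794 to 0.883). Of the 8 classes with at least 20 UMIs, 4 had an interval below 1 and none above, with a lowest ratio of 0.763 (0.617 to 0.95) in group B. NK-like cells went from 352 to 507 CPM (1.44, 0.997 to 2.11), with an interval that held 1. Groups A and C and the regulatory and helper group were alike in control, at 634, 636 and 635 CPM. The gamma-delta T-like cells had little, at 12.7 CPM (1.54 to 46.0) and 47.0 CPM (17.2 to 102). The share of T and NK cells with a Cd27 UMI was 72.8% (70.3 to 75.3) in control and 59.6% (57.8 to 61.4) in IR glands, and 38.0% (35.2 to 40.8) and 33.7% (31.9 to 35.4) after thinning, so the gap was smaller at equal depth and the thinned intervals overlapped. In acinar-like cells the shares were 3.66% and 5.24%, and 1.10% and 1.96% after thinning.

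Splitting the T and NK cells by the presence of a Foxp3 UMI, which uses none of the members, gave a second view of the receptors. There were 38 Foxp3+ cells in control (3.10%) and 99 in IR glands (3.37%), and 35 and 81 of them lay in the regulatory and helper group. Cells without a Foxp3 UMI can include regulatory T cells in which Foxp3 was missed at this depth. In control glands 7 of 8 members had a ratio interval above 1 in Foxp3+ over Foxp3- cells, beside 9.75% of all genes, and in IR glands 8 of 9, beside 10.0%. None had an interval below 1, beside 2.63% and 3.34% of all genes. Tnfrsf4 stood at 1774 CPM in Foxp3+ and 79.8 CPM in Foxp3- cells of control glands, 22.2-fold (18.6 to 26.5) higher, and at 981 and 85.3 CPM in IR glands, 11.5-fold (9.93 to 13.3) higher. Ctla4 was 10.7-fold (8.65 to 13.2) higher in control and 7.06-fold (6.20 to 8.02) in IR glands. Icos was 6.12-fold (5.18 to 7.20) and 4.08-fold (3.59 to 4.61) higher. These were the 3 widest gaps in control among members with at least 50 UMIs. Tnfrsf18 was 5.23-fold (4.25 to 6.38) and 3.84-fold (3.24 to 4.53) higher, and Pdcd1 4.44-fold (2.59 to 7.19) and 4.25-fold (2.51 to 6.84). Among members with at least 50 UMIs, Cd28 and Cd27 differed least, at 1.76 (1.40 to 2.20) and 1.26 (0.998 to 1.57) in control and 1.44 (1.26 to 1.63) and 1.37 (1.17 to 1.60) in IR glands.

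**Figure D3:**
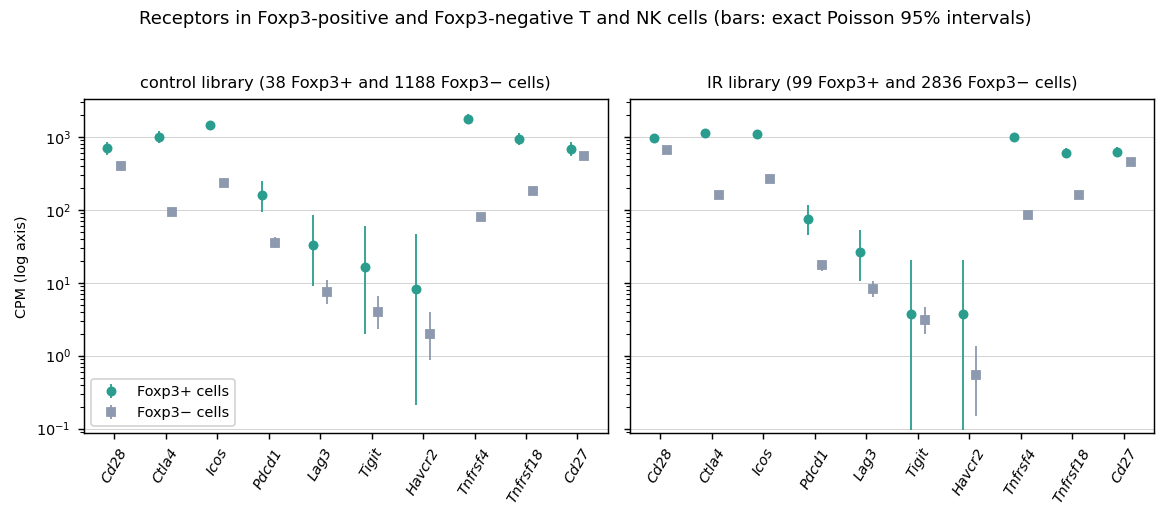
CPM (y axis, log scale) of the receptor genes in T and NK cells with and without a Foxp3 UMI, control library left and IR library right, with 1 library each and exact Poisson 95% intervals. The gap was widest for Tnfrsf4 in both libraries, at 22.2-fold and 11.5-fold, and narrow for Cd28 and Cd27.

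Inside the regulatory and helper group, which holds helper cells as well, 4 of 8 members in control and 5 of 8 in IR glands still had an interval above 1 in Foxp3+ cells, beside 6.03% and 5.10% of all genes. None lay below, beside 4.12% and 3.70%. Tnfrsf4 was at 3.27 (2.72 to 3.94) in control and 2.10 (1.80 to 2.46) in IR glands. Tnfrsf18 was at 2.14 (1.68 to 2.72) and 2.20 (1.79 to 2.69), and Ctla4 at 2.10 (1.65 to 2.65) and 1.75 (1.52 to 2.02). Icos was at 1.77 (1.46 to 2.12) and 1.19 (1.04 to 1.36), and Cd27 passed in IR glands with 1.36 (1.12 to 1.63), a call that thinned cells did not keep (1.23, 0.885 to 1.67). Cd28 did not separate the cells, with ratios of 1.0 (0.780 to 1.28) and 0.939 (0.805 to 1.09), and neither did Pdcd1, with 1.19 (0.673 to 2.01) and 1.01 (0.585 to 1.66). Clustering the T and NK cells anew at a resolution of 1.2 gave regulatory T-like cells (82 and 231 cells) and a helper T group (107 and 211). The regulatory T-like cells carried 6 of 6 regulatory markers but also 6 of 9 helper markers. The helper T group carried 8 of 9 helper markers, and also 2 of 6 regulatory and 4 of 4 red blood cell markers. These clusters also took in some cells of other classes. Ctla4 in the regulatory T-like cells was at 3.04 (2.40 to 3.89) and 1.93 (1.68 to 2.21) of the helper level, and Tnfrsf4 at 3.87 (3.14 to 4.80) and 2.53 (2.15 to 2.97). Cd28 was lower in them, at 0.769 (0.627 to 0.941) and 0.826 (0.735 to 0.928). Icos was at 1.09 (0.918 to 1.29) in control and 0.677 (0.605 to 0.758) in IR glands.

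IR was also compared with control in the Foxp3+ and the Foxp3- cells inside the regulatory and helper group. Tnfrsf4 went from 1868 to 1088 CPM (0.583, 0.483 to 0.703) in Foxp3+ cells and from 571 to 517 CPM (0.906, 0.779 to 1.06) in Foxp3- cells. Icos went from 1496 to 1249.9 CPM (0.836, 0.688 to 1.02) in Foxp3+ cells, where the interval held 1, and was higher in the Foxp3- cells, from 847 to 1053 CPM (1.24, 1.10 to 1.40). Ctla4 went from 991 to 1215 CPM (1.23, 0.981 to 1.54) in Foxp3+ and from 473 to 693 CPM (1.47, 1.26 to 1.72) in Foxp3- cells. The Tnfrsf4 and Icos intervals of the Foxp3+ and Foxp3- cells did not overlap, and those of Ctla4 did. Tnfrsf18 was lower in both, at 0.677 (0.524 to 0.875) and 0.659 (0.548 to 0.793), and Cd28 was at 1.27 (0.984 to 1.66) and 1.36 (1.2 to 1.55). In these Foxp3+ cells 0 of 7 members with at least 20 UMIs lay above 1 and 2 below, beside 6.33% and 6.45% of all genes. Over all Foxp3+ T and NK cells, of which 3 of 38 in control and 18 of 99 in IR glands lay outside the group, Cd28 was above 1 at 1.37 (1.06 to 1.77) and 4 members were below, with Icos at 0.755 (0.624 to 0.916) and Pdcd1 at 0.472 (0.239 to 0.935) beside Tnfrsf4 and Tnfrsf18, and 6.47% and 6.88% of all genes did the same. The finer clustering, unlike the Foxp3 split, gave Ctla4 intervals that did not overlap. Its ratio was 1.11 (0.952 to 1.29) in the regulatory T-like cells, where the interval held 1. In the helper T group it was 1.75 (1.40 to 2.22). Tnfrsf4 intervals were apart there too, at 0.641 (0.560 to 0.735) and 0.982 (0.782 to 1.24). So were those of Icos, at ratios of 0.857 and 1.38. With 1 library per condition the differences between these ratios were not tested. How many of all genes had intervals apart in either split was not measured, so these gaps cannot be called particular to the members.

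Single cells of the regulatory and helper group carried several receptors at once. After thinning to 1000 UMIs, 77.4% of the control and 79.2% of the IR cells of the group had UMIs of at least 2 members, and 53.2% and 54.0% of at least 3. In every other T and NK class the share with at least 3 was 8.33% or less. The mean number of members per thinned cell was 2.80 and 2.67 in the group, 1.26 and 1.32 over all T and NK cells, and 0.0384 and 0.0670 in acinar-like cells. The genomic neighbours Tnfrsf4 and Tnfrsf18 were often found in the same thinned cells of the group. Tnfrsf18 was in 58.6% of control and 40.4% of IR cells with Tnfrsf4, against 30.2% and 18.0% of the cells without it. Ctla4, on another chromosome, was in 65.7% and 58.2% of the cells with Tnfrsf4 and in 25.9% and 44.2% of those without. Tnfrsf4, Tnfrsf18 and Ctla4 were all higher in the regulatory T-like cells of the finer clustering than in its helper T group. The part of this mix of cells in the shared UMIs was not tested. For the neighbours Cd28 and Ctla4 the shares lay closer together, with Ctla4 in 39.6% of control cells with Cd28 and 42.4% of those without, and in 50.8% and 46.1% in IR glands. Icos was in 56.4% of control and 53.3% of IR cells with Cd28, against 50.6% and 46.6% of those without. For cells with Ctla4 the Icos shares were 55.3% and 56.5%, against 52.7% and 44.7%. For cells with Tnfrsf4 they were 55.7% and 56.0%, against 52.6% and 47.7%.

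**Figure D4:**
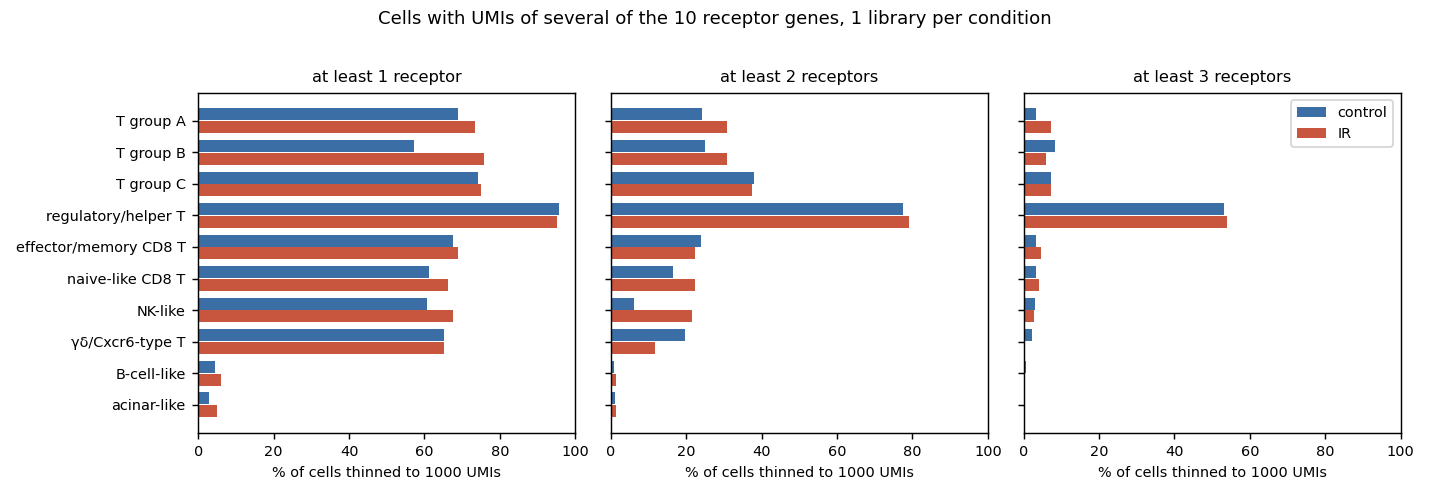
Share of cells (x axis, % of cells thinned to 1000 UMIs) with UMIs of at least 1, 2 or 3 of the 10 receptor genes, by class (y axis), control and IR. The regulatory and helper T group reached 53.2% and 54.0% of cells with at least 3 receptors, and acinar-like cells stayed at 5.03% or less for at least 1.

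In T-cell groups A, B and C, Cd4+ and Cd8+ cells could be compared within a library. Cd28 was higher in Cd4+ cells, at 441 against 322 CPM in control (1.37, 1.08 to 1.75) and 718 against 516 CPM in IR glands (1.39, 1.22 to 1.58). Tnfrsf4 was higher in Cd4+ cells too, on few UMIs, at 3.37-fold (1.04 to 14.2) and 5.76-fold (2.51 to 15.4). Ctla4 was lower in Cd4+ cells of control glands, at 0.501 (0.251 to 0.957), and its interval held 1 in IR glands, at 0.951 (0.689 to 1.31). For Icos, Tnfrsf18 and Cd27 the interval held 1 in both libraries.

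Ligands of these receptors were measured in every class. Cd86, a ligand of CD28 and CTLA-4, was at 384 and 382 CPM in control and IR B-cell-like cells (0.996, 0.904 to 1.10) and at 267 and 265 CPM in the unnamed myeloid cluster (0.996, 0.710 to 1.39). Cd274, which encodes the PD-1 ligand PD-L1, was higher in IR B-cell-like cells, at 19.4 and 42.9 CPM (2.21, 1.53 to 3.24). Its interval held 1 in T and NK cells, at 13.9 and 16.4 CPM (1.17, 0.853 to 1.64). Pvr, a ligand of TIGIT, was at 197 and 155 CPM in dendritic-like cells (0.787, 0.551 to 1.13), and was higher in IR in the Etv1+ and acinar cells, at 14.5 and 29.9 CPM (2.06, 1.60 to 2.66). That class carried 4 of 4 Etv1+, 6 of 6 acinar and 5 of 5 myoepithelial markers. Its median depth was 20429 UMIs per cell in control and 5617 in IR glands. The part of cell mix and depth in the Pvr ratio was not tested. Of the 14 ligands 8 had at least 20 UMIs in T and NK cells, and 1 was higher and 1 lower past the fold. Of all genes 17.7% were higher and 4.45% lower by this rule. The median ligand ratio was 0.964, and the median gene was at 1.15. The 3 ligands with most UMIs were Lgals3, Lgals9 and Cd274. Lgals3, which encodes galectin-3, a ligand of LAG-3, was lower in IR within the fold, at 79.7 and 55.7 CPM (0.699, 0.604 to 0.810), and in the regulatory and helper group at 0.274 (0.204 to 0.365). It went the other way in the gamma-delta T-like cells, at 617 and 1597 CPM (2.59, 2.02 to 3.33), its highest level in any class of the IR library. Lgals9, a ligand of TIM-3, was higher past the fold, at 20 and 31.5 CPM (1.57, 1.22 to 2.05), and Pdcd1lg2, the other PD-1 ligand, was lower, at 10.3 and 6.75 CPM (0.658, 0.430 to 1.01). Tnfsf18 and Fgl1 had no UMI in the T and NK cells of either library.

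**Figure D5:**
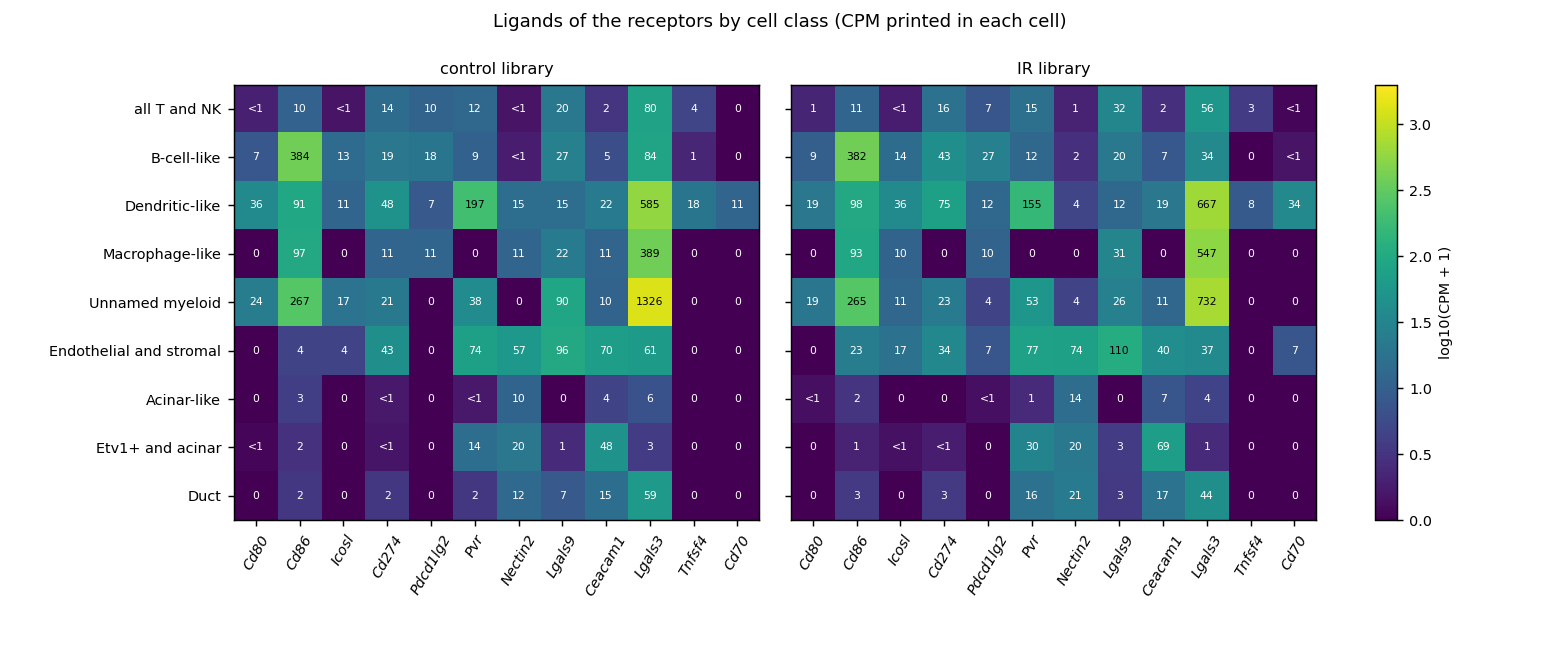
Level of ligands of the receptors (CPM, colour on a log scale) by cell class, control library and IR library. Cd86 was highest in B-cell-like cells, at 384 and 382 CPM, and Pvr in dendritic-like cells, at 197 and 155 CPM, in both libraries.

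Other genes of the pathway were counted in T and NK cells by the same rule, by which 17.7% of all genes were higher and 4.45% lower around a median of 1.15. Of 14 related receptors, all with at least 20 UMIs, 3 were higher in IR past the fold and none lower, with a median ratio of 1.05. They were Cd226, the activating partner of TIGIT (1.58, 1.13 to 2.26), Cd160 (1.55, 0.963 to 2.58) and Cd40lg, the CD40 ligand of helper T cells (1.77, 1.11 to 2.92). Those with most UMIs were at 1.01 (0.958 to 1.06) for Cd2, 1.08 (0.979 to 1.2) for Slamf6 and 1.06 (0.940 to 1.19) for Cd5. Of 16 signal transducers 4 were higher and none lower, with a median of 1.18. They were Ptpn6, which encodes the phosphatase SHP-1 (2.18, 1.83 to 2.61), Traf5, an adaptor of TNF receptors (2.06, 1.53 to 2.81), Sh2d1a (1.70, 1.46 to 1.99) and Prkcq, which encodes the kinase PKC-theta downstream of CD28 (1.57, 1.36 to 1.83). Lck, the kinase that starts T-cell receptor signalling (1.44, 1.33 to 1.56), and Pik3r1 (1.15, 1.06 to 1.25) were among those with most UMIs. Of 14 transcription factors of activation and exhaustion 5 were higher and 2 lower, with a median of 1.30. Tcf7, which marks naive and memory-like T cells (1.72, 1.58 to 1.87), Maf (1.55, 1.31 to 1.84), Bcl6 (1.86, 1.25 to 2.85), Irf4 (2.71, 1.36 to 5.99) and Tox2 (2.44, 1.22 to 5.43) were higher. Nr4a3 (0.666, 0.579 to 0.766) and Prdm1 (0.565, 0.268 to 1.19) were lower, and Tox, known from exhausted T cells, was at 0.929 (0.797 to 1.09). The other 2 with most UMIs were Nr4a2 (1.35, 1.19 to 1.53) and Ikzf2 (1.36, 1.18 to 1.56), and Foxp3 was at 15.9 and 19.9 CPM (1.25, 0.930 to 1.70). Of 10 genes that respond to handling and stress, 3 were higher and 3 lower in IR, with Jun at 3.74 (3.45 to 4.06) and Hsp90aa1 at 0.393 (0.379 to 0.407). Their summed level was 4612 and 4991 CPM. By T and NK class, it went from 3866 to 5122 CPM in naive-like CD8 T cells and from 3544 to 4045 in effector or memory CD8 T-like cells. In group B it went from 7277 to 8023. It was lower in IR in group A (3939 to 2892), group C (3659 to 3173) and the regulatory and helper group (7011 to 5593). The summed level was also lower in the NK-like cells (6723 to 5941) and the gamma-delta T-like cells (6327 to 5816). Its part in the receptor values was not tested.

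Likeness of pattern was measured as Pearson's r of log2(CPM + 10) over 18 points, the 9 lymphoid classes in both libraries, among 8245 genes with at least 100 UMIs. The points share libraries and cells, so r is only a description. Closest to Cd28 were Fyb (0.97), Lck (0.96) and Leprotl1 (0.93), and closest to Cd27 were Fyb (0.97), Ms4a4b (0.95) and Prkch (0.93). Closest to Ctla4 were Izumo1r (0.93), Syt11 (0.92) and Lrig1 (0.92). Closest to Tnfrsf4 were Lrig1 (0.97), Foxp3 (0.94) and Lrrc32 (0.93), so Lrig1 was near both. Pdcd1 was nearest to Il2ra (0.97), S100a4 (0.97) and Osbpl3 (0.95), and Icos to Hnrnpll (0.94), Smpdl3a (0.94) and Aebp2 (0.94). Lag3 was nearest to Rgs16 (0.94), Trp53inp1 (0.86) and Tspan3 (0.85), and Tnfrsf18 to Ptpn22 (0.90), Sh2d1a (0.88) and Bzw2 (0.87). Among the members the highest values were 0.90 for Cd28 with Cd27, 0.87 for Tnfrsf18 with Cd27 and 0.85 for Ctla4 with Tnfrsf4, and the lowest was -0.34 for Pdcd1 with Cd27. The genomic neighbours reached 0.64 for Cd28 with Ctla4, 0.54 for Ctla4 with Icos and 0.59 for Tnfrsf4 with Tnfrsf18. Tigit and Havcr2 had too few lymphoid UMIs (43 and 15) for this measure.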

How the data were processed

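Dissociated PG cells of 2 mice per condition were loaded on the 10x Chromium platform. Reads were aligned to the mouse genome (mm10) by the authors with Cell Ranger (3.0.1 in the submitters' processing notes), and the deposited values are raw counts of UMIs for each gene and barcode. The step that separated cells from empty droplets is not given in the sources used here.

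As in the authors' methods, a barcode needed 200 genes and no more than 5% mitochondrial UMIs. Both libraries were joined by anchor integration in Seurat 5.3.0 (R 4.3.3; 2000 variable genes without the 10 members, 30 components, resolution 0.3), T and NK clusters were split again (20 components, resolution 0.8), and 18 cells with T and B markers were left out. To be named after a marker list, a class needed at least 3 of its markers with 5 UMIs and 2-fold the CPM of the other cells compared. Names were then set by hand. Group C and the unnamed clusters met the rule for lists they were not named after. With 1 library per condition no test was made. A gene counted as higher or lower in IR with a CPM ratio past 1.5 and at least 20 UMIs over both libraries. Intervals (scipy 1.17.1, numpy 2.4.6) treat UMIs as independent, although UMIs of 1 cell are not, so they are too narrow. Limits for a count of 0 are 3 divided by the number of cells. T and NK cells held 4092897 control and 7702318 IR UMIs. Scrublet (scanpy 1.11.5) marked 32 of 3378 control and 1 of 5286 IR cells, so it did not work in the IR library, and all cells were kept. An alternative leaves out the highest 6% of scores. TMM factors came from edgeR 4.0.16. The ratio step was tested on simulated data.

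All 10 members were named, with the 3 genes of each list with most UMIs in T and NK cells and those past the fold, and the 3 genes most like each member. The value of 1 signal transducer that this rule names is not reported here. Tox, Foxp3, Jun, Hsp90aa1, the ligands in single classes and the motifs were chosen after values were seen. Cd244a of the receptor list is Cd244 in the files. The members and lists were chosen with earlier results of these data known.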

Additional observations from a re-analysis of the deposited data

Results flagged for a closer look

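The ratio of IR over control lay on opposite sides of 1 in different lymphoid classes, with intervals that did not hold 1, for Tnfrsf4 and Tnfrsf18. Tnfrsf4 was at 2.39 in group A and 0.760 in the regulatory and helper T group. Tnfrsf18 was at 1.27 in group A and 1.59 in the NK-like cells, and at 0.663 in the regulatory and helper T group and 0.625 in the effector or memory CD8 T-like cells. The median gene was itself at 1.16 in group A and 1.08 in the NK-like cells. The Tnfrsf18 intervals there, 1.05 to 1.55 and 1.03 to 2.50, hold these values. How many of all genes lay on both sides of 1 in this way was not measured. With 1 library per condition these differences between classes were not tested.

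Barcodes left out for over 5% mitochondrial UMIs, 1260 in control and 1858 in IR glands and of all cell types together, also carried the receptors, and 4 of 8 members had a ratio interval above 1 there, beside 23.4% of all genes. The ratios of IR over control were 2.34 for Cd28, 2.23 for Ctla4, 1.57 for Icos and 1.27 for Tnfrsf4. Pdcd1 and Cd27 had intervals below 1, beside 4.46% of all genes, at 0.602 and 0.857. The share of T cells among these barcodes was not measured.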

How the results depend on the processing

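No paired analysis was possible because each condition had 1 library. Over the 11 alternatives for the ratios in T and NK cells, Cd28 ranged over 1.47 to 1.72, Ctla4 over 1.36 to 1.76 and Pdcd1 over 0.441 to 0.615, each on 1 side of 1. TMM factors, which lower every ratio by the same factor, gave 1.47 for Cd28, 1.40 for Ctla4, 0.965 for Icos, 0.795 for Tnfrsf4, 0.750 for Tnfrsf18 and 0.741 for Cd27. Thinned cells gave 1.36 for Ctla4, 1.0 for Icos, 0 for Havcr2, which then had no IR UMI, 0.692 for Tnfrsf4 and 0.766 for Tnfrsf18. Without integration Tnfrsf4 was at 0.727. Among alternatives chosen after seeing the data, leaving out group B gave 1.5 for Cd28, 1.76 for Ctla4, 1.19 for Icos, 1.06 for Tnfrsf4, 0.942 for Tnfrsf18 and 0.898 for Cd27, and control class shares gave 1.48 for Cd28. The cause was not tested.

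The count of 2 members higher in IR was 0 under TMM factors, control class shares and a fold of 2, and 1 in thinned cells. Of all genes, 10.5% were higher with TMM factors, 16.9% with control class shares and 18.7% in thinned cells. The share of all genes at a fold of 2 is not given here. The count of 1 lower was 2, Pdcd1 and Tigit, with a mitochondrial limit of 10%, without the highest doublet scores and with TMM factors. In these settings 4.42%, 4.38% and 7.24% of all genes were lower. The count was 2 as well, Pdcd1 and Havcr2, with no minimum of UMIs and with T cells by gate. By gate 4.49% of all genes were lower, and the share with no minimum is not given here. By shares of cells with a UMI, 3 members (Pdcd1, Tnfrsf18 and Cd27) were lower in IR with intervals apart, beside 12.6% of all genes. After thinning to equal depth 1 (Tnfrsf18) was, beside 2.54%. Members above 1 in Foxp3+ cells numbered 7 in control and 8 in IR glands, beside 9.75% and 10.0% of all genes, and 6 and 7 in thinned cells. Inside the regulatory and helper group, an alternative also chosen after seeing the data, they numbered 4 and 5, beside 6.03% and 5.10% of all genes. In thinned cells of the group they numbered 4 and 4. The shares of all genes for these thinned Foxp3 counts are not given here. Few UMIs limit Lag3, Tigit and Havcr2.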
